A study of Mus musculus with 2 samples.

Results

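The genes described here are 8 chaperones and thiol enzymes of the endoplasmic reticulum, taken by symbol from the gene lists of both count matrices, out of 39232 genes in all. Of these, 3 are germ cell forms (Calr3, Clgn and Pdilt) and 5 are general forms (Calr, Canx, P4hb, Pdia3 and Pdia4). Each was found in both matrices. Testis tissue of male C57 BL/6 mice was profiled by droplet single-cell RNA sequencing, with 1 library per group. The high-fat library carries a label naming a high-fat diet, and in the study's design 10 of 20 mice were fed for 12 weeks on chow whose energy was 60% fat. The label of the other library gives the tissue only, and it is called the no-diet-named library from here on. The design's other 10 mice stayed on maintenance feed over the same 12 weeks, and all mice were 5 weeks old on arrival and adapted for 1 week. No allele or transgene is named for either group. Whether 1 mouse or pooled mice went into each library is not stated. With 1 library per group, no test of a difference between libraries was possible, so "higher" and "lower" compare these libraries and not the diets.

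Proteins that enter the endoplasmic reticulum are folded there with the help of sugar-binding chaperones and of disulfide isomerases, enzymes that make and rearrange the bonds between cysteines. The general forms are used by nearly every cell. The germ cell forms are known from mouse knockouts for handling sperm surface proteins of the ADAM family, and males without them make sperm that fail at the egg or in the oviduct.

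Calr3 (calsperin) is the germ cell relative of calreticulin (Calr), Clgn (calmegin) that of the membrane-bound calnexin (Canx), and Pdilt that of the disulfide isomerases. P4hb is protein disulfide isomerase itself. Pdia3 (ERp57) is the isomerase that works with calnexin and calreticulin, and Pdia4 (ERp72) is another member of that family. In the GENCODE M21 annotation on GRCm38, whose gene identifiers match those of the files down to the version, 3 of the 8 genes lie on chromosome 8: Calr3 at chr8:72424176-72443870 (minus strand), Clgn at chr8:83389867-83428552 (plus strand) and Calr at chr8:84841850-84846934 (minus strand). Canx lies at chr11:50293961-50325673 and P4hb at chr11:120560298-120573253, Pdilt at chr7:119486587-119523489 and Pdia4 at chr6:47796141-47813430, all on the minus strand, and Pdia3 at chr2:121413775-121438687 on the plus strand. The exons of Pdilt share 104 bases with Acsm5 and 201 with Gm37518, and those of Pdia3 share 18 bases with Catsper2, each on the opposite strand. The exons of Pdia4 share 14 bases with Mir704 on the same strand. Whether the counting used strand is not given in the sources used here, so reads from those bases could come from either gene.

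The promoter sequences are shown because several general forms shared a stage of highest level with Hspa5 (BiP) and Hsp90b1 (Grp94), the main chaperones of the compartment. RefSeq promoters on GRCm38.p6 matched 7 of the 8 genes, the exception being Clgn. The stress element, made of CCAAT and CCACG with 9 bases of any kind between them, was searched on both strands of the 250 bases before each start. It was found in 2 of the 7 matched genes, Calr and Canx, against 0.113% of all 32851 promoters. Hspa5 held the element at 1 place and Hsp90b1 at 2 places. In the 19-base elements, the capitals mark the CCAAT and CCACG ends. In the promoter windows, which stop before the first annotated exon base, they mark the element's ends and every CCAAT, and on the gene's own strand an element read from the opposite strand appears as CGTGG and ATTGG. The windows of Calr3 and Pdilt are printed beside those of Calr and Canx to set the germ cell forms next to the general ones.
Calr element, chr8:84847075-84847093, plus strand: CCAATgagggtcgaCCACG
Canx element, chr11:50325800-50325818, minus strand: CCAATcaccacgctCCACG
Hspa5 element, chr2:34772025-34772043, plus strand: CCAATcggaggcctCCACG
Hsp90b1 element, chr10:86705638-86705656, minus strand: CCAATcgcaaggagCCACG
Hsp90b1 element, chr10:86705533-86705551, plus strand: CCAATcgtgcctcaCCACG
Calr, chr8:84846935-84847181, minus strand: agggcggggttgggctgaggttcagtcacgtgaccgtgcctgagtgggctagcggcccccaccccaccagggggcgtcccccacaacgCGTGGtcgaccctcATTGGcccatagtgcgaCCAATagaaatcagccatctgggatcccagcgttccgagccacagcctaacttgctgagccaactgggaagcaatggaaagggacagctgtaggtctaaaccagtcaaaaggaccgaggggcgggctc
Canx, chr11:50325674-50325923, minus strand: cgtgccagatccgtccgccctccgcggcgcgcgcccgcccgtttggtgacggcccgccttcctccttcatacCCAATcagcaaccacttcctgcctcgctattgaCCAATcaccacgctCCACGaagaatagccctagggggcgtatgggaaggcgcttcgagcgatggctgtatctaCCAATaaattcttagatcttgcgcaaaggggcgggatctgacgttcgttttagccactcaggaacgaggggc
Calr3, chr8:72443871-72444028, minus strand: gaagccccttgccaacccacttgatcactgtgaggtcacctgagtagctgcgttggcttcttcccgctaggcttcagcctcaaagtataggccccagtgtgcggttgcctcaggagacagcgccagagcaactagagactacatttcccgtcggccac
Pdilt, chr7:119523490-119523732, minus strand: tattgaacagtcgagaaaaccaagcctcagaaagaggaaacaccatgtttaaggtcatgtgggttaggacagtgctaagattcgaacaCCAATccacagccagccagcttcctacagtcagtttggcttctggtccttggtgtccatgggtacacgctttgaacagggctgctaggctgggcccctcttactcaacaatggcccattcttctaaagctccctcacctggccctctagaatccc

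The element began 162 bases before the start of Calr, on the opposite strand, and 145 bases before that of Canx. CCAAT alone, which also lies inside the element, occurred in each of the 7 matched genes and in 33.8% of all promoters. Calr3 had 2 matched promoters, with CCAAT starting 79 bases before the start of promoter 1 and 109 before that of promoter 2. Only promoter 1 of Calr3 is printed, and its CCAAT lies within the bases that the printed window leaves out. The second form of the stress element, ATTGG and CCACG with 1 base of any kind between them (in 0.0304% of all promoters), and the cAMP element TGACGTCA (1.55%) occurred in none of the 7. The core TGACG (17.8%) occurred in Calr3 (promoter 1 only), Canx, Pdia3 and P4hb. These are matches of letters and not sites shown to be used.

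The high-fat library held 201842085 UMIs (unique molecular identifiers, 1 per captured transcript) in 12661 barcodes, and the no-diet-named library 207667609 UMIs in 13805 barcodes, of which 12196 and 13286 were kept after filters and doublet calls. The libraries share 1507 barcode sequences. Cells fell into 8 germ cell and 5 somatic classes, named from marker genes, and each name stands for "like" that type. The labelled cell type is germ cells, yet Sertoli-like cells led by Cst9 and Cst12 and lymphocytes led by Ccl5 were present. Early round spermatids were led by Ssxb1 and Ssxb2 and late ones by Cst13, while the middle clusters had no listed marker among their leading genes and took the name from the mean of the round spermatid markers. In the early clusters that mean log2 fold was only 0.0887 (cluster 10, high-fat) and -0.194 (cluster 3, no-diet-named), so their name rests on the Ssxb genes. That split of the round spermatids was set after the clusters had been seen. From pachytene to late round spermatids, different clusters hold most of a class in the high-fat and the no-diet-named library: clusters 13 against 12 and 15 (pachytene), 1 against 0 (near the divisions), 10 against 3 (early round), 6 against 7 and 8 (middle round), and 9 against 14 (late round). A cluster held mostly by 1 library may reflect that library. Clusters 5, 11, 22 and 23, with 12.8% of high-fat and 8.31% of no-diet-named cells, stayed without a name. Median depth ran from 19063 to 20728.5 UMIs (high-fat) and from 13274.5 to 15842.5 (no-diet-named) in those 5 deep classes, and from 1471 to 4206 and from 1342.5 to 3250.5 in the others.

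Levels are in CPM, the gene's UMIs scaled to the same total of UMIs in each class, with 95% exact Poisson intervals, which here and throughout cover counting error only. Since CPM is not scaled by transcript length, each gene is compared with itself. A higher level cannot be told apart from fewer UMIs of the other genes in a class.

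Calr3 was a transcript of late round spermatids. Its level there was 244 CPM (238 to 250) in the high-fat library and 260 CPM (253 to 268) in the no-diet-named library. In early round spermatids it was 5.95 and 4.89 CPM, and in middle ones 40.8 and 38.0 CPM, so that both steps of round spermatid maturation went past 5-fold upward. The ratio of middle to early was 6.86 (5.84 to 8.09) and 7.77 (6.60 to 9.20), and that of late to middle 5.99 (5.63 to 6.36) and 6.85 (6.48 to 7.24). In elongating spermatids Calr3 was lower again, with 103 and 76.4 CPM. Pachytene spermatocytes had its lowest level, 5.41 and 3.09 CPM, which put the highest class 45.1-fold and 84.3-fold above the lowest. In the order of its levels, the libraries' ranges overlapped between spermatogonia (28.3 and 60.9 CPM), middle round spermatids and leptotene and zygotene spermatocytes (38.3 and 24.9 CPM), and again among the lowest 3 classes. At least 1 Calr3 UMI was seen in 91.3% and 87.8% of late round spermatids, at median depths of 19886 and 15207 UMIs. Sertoli cells, which are not known to use the gene, showed one in 7.56% and 3.88% at 1532 and 1342.5 UMIs. With each cell thinned to 1000 UMIs the shares were 22.3% and 20.95% in late round spermatids, against 4.34% and 2.33% in Sertoli cells.

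Pdilt reached its high levels earlier than Calr3. Near the meiotic divisions it was at 18.3 and 21.4 CPM, and in early round spermatids at 111 (108 to 115) and 113 (110 to 117) CPM, a ratio of 6.08 and 5.28. Middle round spermatids had 276 and 270 CPM and late ones 309 and 317 CPM, so its level was already close to its highest where Calr3 had just begun. Elongating spermatids had 31.4 and 22.9 CPM, 0.101 and 0.0722 of the late round level, a deeper step down than that of Calr3 (0.420 and 0.294). As measured, the lowest class was pachytene (14.1 and 11.4 CPM), and the span between classes was 22.0-fold and 27.8-fold. With the free RNA of other cells subtracted as described below, leptotene and zygotene spermatocytes came out at 0 in both libraries. A value of 0 marks a free RNA estimate above the measured level. Spermatogonia were then at 2.65 CPM and 0. Pachytene values had no such subtraction. Spermatogonia (52.7 and 36.6 CPM), leptotene and zygotene spermatocytes (41.7 and 27.4 CPM) and elongating spermatids overlapped between libraries.

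Clgn was broad, with its highest level in pachytene spermatocytes, 743 (734 to 753) and 800 (790 to 809) CPM. From there it was lower at every later stage: 715 and 675 CPM near the divisions, 615 and 615 in early, 513 and 486 in middle and 373 and 329 in late round spermatids, and 190 and 239 in elongating ones. No step after pachytene passed 2-fold. The only step past 2-fold was the entry into pachytene, with ratios of 2.59 and 2.21 over leptotene and zygotene spermatocytes (287 and 362 CPM). Spermatogonia had 299 and 297 CPM. The span between classes was 3.92-fold and 3.34-fold, far narrower than for Calr3 and Pdilt.

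**Figure D1:**
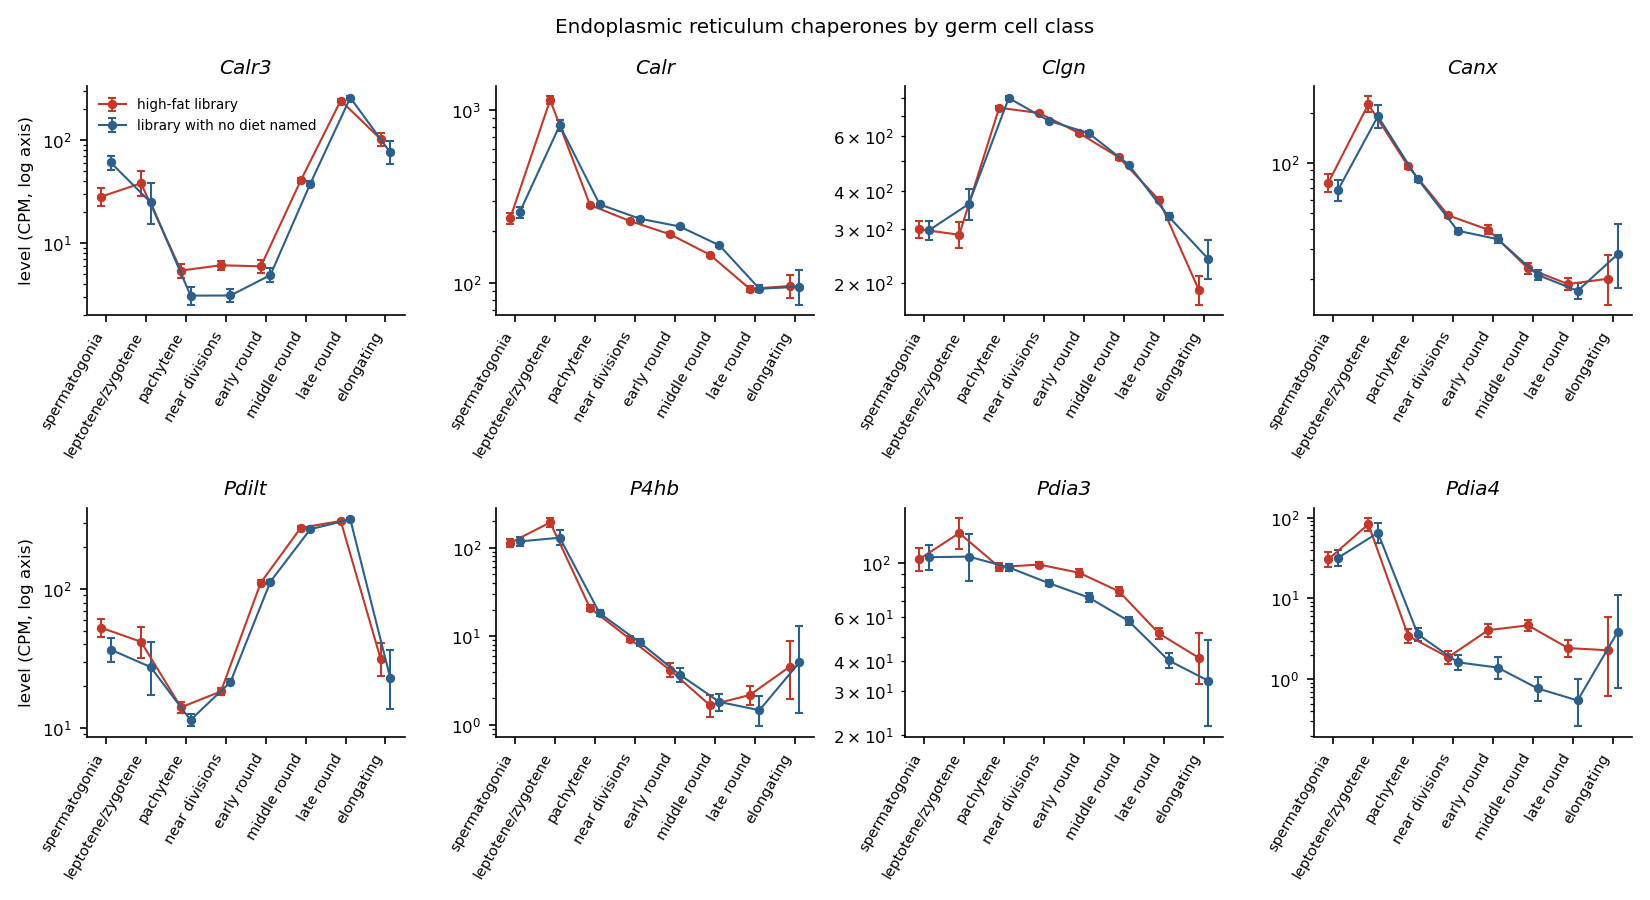
Level of each of the 8 genes (y axis, CPM, log scale) in 8 germ cell classes in order of maturation (x axis), with the high-fat library and the library with no diet named as separate points and 95% counting intervals as bars. Calr3 and Pdilt are highest in late round spermatids (244 and 260, 309 and 317 CPM), Clgn in pachytene spermatocytes, and the 5 general forms in leptotene and zygotene spermatocytes.

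All 5 general forms had their highest germ cell level in leptotene and zygotene spermatocytes in both libraries, although Pdia3 and P4hb of the no-diet-named library lay there within counting error of spermatogonia. Over 22252 genes measured in both, 14.9% had their highest level there in both. Calr, the soluble sugar-binding chaperone that also stores calcium, was at 1146 (1091 to 1202) and 818 (757 to 883) CPM in leptotene and zygotene spermatocytes, against 237 and 258 CPM in spermatogonia. That is a ratio of 4.83 (4.43 to 5.26) and 3.18 (2.85 to 3.54). The size of this peak depended on how cells were classed: by each cell's own marker counts, leptotene and zygotene spermatocytes had 381 and 355 CPM of Calr, 134 and 126 of Canx, 48.1 and 40.2 of P4hb and 14.6 and 12.7 of Pdia4. Those P4hb and Pdia4 values lie below the spermatogonial levels of the main classing. Whether this class stays the highest under that classing is not given here. In the main classing, pachytene spermatocytes had 283 and 286 CPM of Calr, and from there Calr was lower stage by stage to 92.8 and 92.9 CPM in late round spermatids. Only elongating spermatids, with 96.4 and 95.5 CPM, broke that order, within counting error of the late round level. The span was 12.3-fold and 8.81-fold.

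Canx followed the same order down to the late round spermatids. It had 225 (202 to 251) and 191 (162 to 224) CPM in leptotene and zygotene spermatocytes, 2.97 and 2.79 times the spermatogonial level of 75.9 and 68.4 CPM. It then stood at 95.0 and 79.5 CPM in pachytene, 48.1 and 38.9 near the divisions, 39.5 and 34.6 in early, 23.01 and 21.04 in middle and 18.5 and 16.9 in late round spermatids. Elongating spermatids had 20.0 and 28.0 CPM, overlapping the middle round level, and the division and early round levels overlapped as well. Within the no-diet-named pachytene class, cluster 15 had 119 CPM and cluster 12 had 57.0 CPM, so the class value averages unlike clusters.

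P4hb had the widest span of the general forms in the high-fat library, 115-fold, and 87.97-fold in the no-diet-named library. Spermatogonia had 113 and 118 CPM and leptotene and zygotene spermatocytes 193 (171 to 217) and 130 (106 to 157) CPM. The level in pachytene was 20.8 and 18.3 CPM, 0.108 and 0.141 of the level before. Each of the next 3 steps went past 2-fold downward in both libraries, to 9.35 and 8.59 CPM near the divisions, 4.18 and 3.71 in early and 1.68 and 1.82 in middle round spermatids. Late round spermatids had 2.19 and 1.47 CPM, which overlapped the middle round level. The elongating values of 4.56 and 5.09 CPM rest on 8 and 4 counts.

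Pdia3 was the flattest of the 8, with a span of 3.22-fold and 3.20-fold and no step past 2-fold. Its levels were 104 and 105 CPM in spermatogonia, 132 and 106 in leptotene and zygotene spermatocytes, and 96.1 and 95.8 in pachytene. They were 98.4 and 82.7 CPM near the divisions, 91.1 and 72.3 in early, 76.5 and 58.0 in middle and 51.6 and 40.1 in late round spermatids, and 41.1 and 33.1 in elongating ones. From pachytene to middle round spermatids, the libraries' ranges of neighbouring classes overlapped.

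Pdia4 was high at the earliest stages only. It had 30.5 and 31.8 CPM in spermatogonia and 82.8 (68.6 to 99.1) and 64.9 (48.4 to 85.0) CPM in leptotene and zygotene spermatocytes. Pachytene spermatocytes had 3.44 and 3.60 CPM, 0.0415 and 0.0555 of the level before, the lowest ratio of any step among the 8 genes. Later classes stayed at or under 4.64 CPM in the high-fat and 3.82 CPM in the no-diet-named library, and their ranges overlapped from pachytene on.

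Counted over the 7 steps between neighbouring stages, the 8 genes passed 2-fold in 21 of 56 cases in the high-fat library. In the no-diet-named library they did so in 23 cases, with Pdia4 not measured at the step into elongating spermatids. Over all genes, 34.0% and 33.6% of measured gene and step pairs passed it. The counts of the 8 genes are near that background, so the number of steps does not set them apart. At entry into leptotene and zygotene, Calr, Canx and Pdia4 were past 2-fold higher in both libraries, against 14.2% and 12.0% of all genes, and Calr3 was past 2-fold lower in the no-diet-named library alone (21.4% of all genes). At entry into pachytene, 6 genes were past 2-fold lower in both (43.5% and 38.1% of all genes), namely Calr3, Calr, Canx, Pdilt, P4hb and Pdia4, and Clgn was past 2-fold higher (18.0% and 16.6%). For Pdilt the level before that step lay below the free RNA level given below. The median log2 ratio of the 8 at that step was -1.79 and -1.39, against -0.75 and -0.59 over all genes.

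From pachytene to the divisions, P4hb was past 2-fold lower in both libraries and Canx and Pdia4 in the no-diet-named library only, against 18.2% and 19.6% of all genes, and none was past 2-fold higher (6.02% and 7.12%). Canx sat at that limit in both, with ratios of 0.506 and 0.489. Into early round spermatids, Pdilt was past 2-fold higher in both (19.9% and 19.0%) and P4hb lower in both (8.53% and 7.04%). Pdia4 was 2.16-fold higher in the high-fat library and at 0.8605 of the earlier level in the no-diet-named library. Into middle round spermatids, Calr3 and Pdilt were higher (19.0% and 19.8%) and P4hb lower (7.98% and 5.40%) in both. Into late round spermatids only Calr3 passed the limit upward (15.0% and 17.0%) and none passed it downward (7.89% and 11.9%). Into elongating spermatids, Calr3 and Pdilt were lower in both (26.7% and 29.9%), and P4hb was higher on its few counts (17.6% and 15.8%).

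The share of the germ cell form in each pair is a share of UMIs and is compared between classes only. Of the UMIs of Calr3 and Calr together, Calr3 held 3.01% and 2.24% in early round spermatids, 21.8% and 18.7% in middle ones and 72.5% (71.6 to 73.3) and 73.7% (72.6 to 74.8) in late ones. Both genes moved the share, since Calr was lower while Calr3 was higher. In elongating spermatids the share was 51.6% and 44.4%, and in pachytene its lowest, 1.88% and 1.07%. Cell by cell, more Calr3 than Calr UMIs were counted in 0.508% and 0.567% of early, 11.3% and 9.72% of middle and 73.6% and 72.5% of late round spermatids. Both transcripts were seen in the same cell in 71.0% and 62.9% of late round spermatids.

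The shift from P4hb to Pdilt came earlier and went further. Pdilt held 17.8% and 17.5% of the pair's UMIs in leptotene and zygotene spermatocytes, 40.3% and 38.4% in pachytene and 66.2% and 71.4% near the divisions. In leptotene and zygotene spermatocytes Pdilt lay below the free RNA level given below. In early round spermatids it held 96.4% and 96.8%, and in late ones 99.3% and 99.5%. The pair of Clgn and Canx did not shift one way. Clgn held 79.8% and 81.3% in spermatogonia, 56.0% and 65.5% in leptotene and zygotene spermatocytes, 88.7% and 91.0% in pachytene and 93.7% and 94.6% near the divisions. From there to late round spermatids it stayed between 94.0% and 95.7% in the high-fat and between 94.7% and 95.8% in the no-diet-named library.

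**Figure D2:**
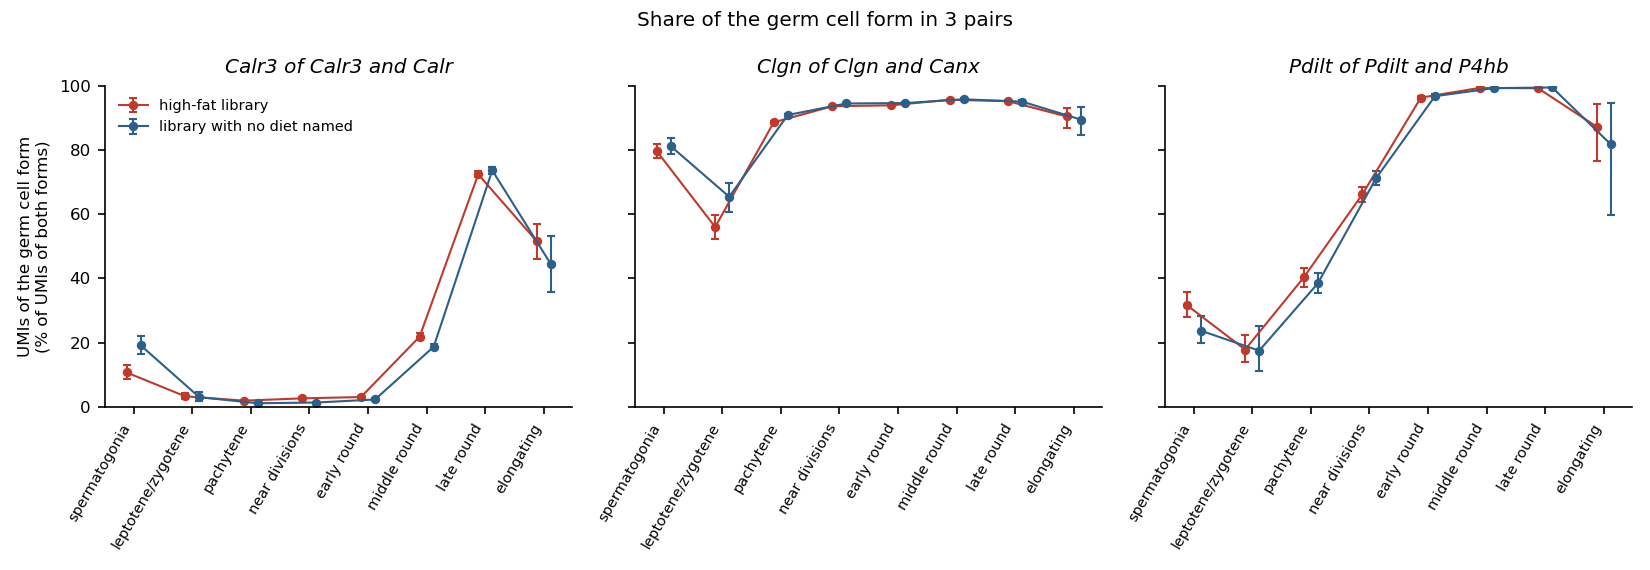
UMIs of the germ cell form as a percentage of the UMIs of both forms (y axis) in 8 germ cell classes in order of maturation (x axis), for 3 pairs, with the high-fat library and the library with no diet named as separate points and 95% exact binomial intervals as bars. The Calr3 share is 3.01% and 2.24% in early and 72.5% and 73.7% in late round spermatids, while the Pdilt share is already 96.4% and 96.8% in early ones.

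Across 24 profiles (12 classes of at least 50 cells in each library), every pair of general forms had a positive correlation and the germ cell forms had mixed signs. Pearson's r of log2(CPM + 1) between general forms ran from 0.62 for Pdia3 and Pdia4 to 0.88 for Canx and P4hb, with 0.87 for Calr and Canx. It was 0.54 for Calr3 and Pdilt, -0.59 for Calr3 and Clgn and -0.03 for Pdilt and Clgn. The profiles share their libraries and the free RNA of each, so these values are descriptions.

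Between libraries, most of these genes differed little in the germ cell classes. Of the gene and class pairs, 8 were past 1.5-fold either way, 4 of them Calr3, 3 of them Pdia4 and 1 Pdilt. Over all genes 34.4% of such pairs were past 1.5-fold, so the 8 genes lay under that share. The shares of all genes, here and below, take in genes with as few as 20 counts and are not matched for level. How far level accounts for the gap was not tested. By class, 1 of 8 was past the limit in spermatogonia (29.7% of all genes), 2 in leptotene and zygotene spermatocytes (33.4%) and 1 each in pachytene (35.2%), near the divisions (35.1%) and in early (35.0%), middle (35.6%) and late round spermatids (36.3%). In elongating spermatids it was none of 6 measured (32.8%). Over all kept cells it was 1 of 8, Pdia4 (35.6%). Calr, Clgn, Canx, P4hb and Pdia3 stayed within 1.5-fold in every germ cell class with at least 20 counts, the nearest being P4hb in leptotene and zygotene spermatocytes (ratio 1.49, 1.18 to 1.88) and in late round spermatids (1.48, 0.931 to 2.42). Canx in elongating spermatids (0.713, 0.406 to 1.28) and Calr in leptotene and zygotene spermatocytes (1.40, 1.28 to 1.54) came next.

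Pdia4 was higher in the high-fat library in all 3 round spermatid classes. In middle round spermatids (cluster 6 against clusters 7 and 8) it had 141 counts or 4.64 CPM (3.91 to 5.47), against 35 counts or 0.769 CPM (0.536 to 1.07) in the no-diet-named library, a ratio of 6.03 (4.14 to 9.003). In early ones (cluster 10 against 3) it had 117 against 45 counts, 4.05 against 1.39 CPM, a ratio of 2.90 (2.04 to 4.19), and in late ones (cluster 9 against 14) 70 against 10 counts, 2.43 against 0.546 CPM, a ratio of 4.45 (2.28 to 9.68). The difference was not seen earlier, with ratios of 0.959 in spermatogonia, 1.28 in leptotene and zygotene spermatocytes, 0.955 in pachytene and 1.16 near the divisions. No single cell carried it, since the cell with the most counts held 2.13% and 2.86% of them in middle round spermatids. Differences of that size were not rare: 7.81%, 6.97% and 7.29% of genes were past 2.5-fold higher in the high-fat library in early, middle and late round spermatids, and 3.88%, 3.67% and 4.04% past 4-fold higher, folds chosen after the values had been seen. Cells with a Pdia4 UMI were 9.48% against 2.496% in early, 9.99% against 1.34% in middle and 5.58% against 1.01% in late round spermatids, at median depths of 19063 to 20728.5 against 14398 to 15590 UMIs. Near the divisions, at similar depths, they were 4.25% and 3.08%. After thinning to 1000 UMIs the shares were 0.423% and 0.1702%, 0.751% and 0.0765%, and 0.246% and 0.202%, too low to read. The part that depth has in the result was not tested beyond this.

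Calr3 was past 1.5-fold between libraries only in classes where it was at 60.9 CPM or less. It was higher in the high-fat library in pachytene spermatocytes (5.41 against 3.09 CPM, ratio 1.75, 1.36 to 2.26) and near the divisions (6.09 against 3.10 CPM, ratio 1.97, 1.64 to 2.37). In late round spermatids the ratio was 0.938 (0.904 to 0.974), and over all kept cells Calr3 had 51.5 against 38.2 CPM, a ratio of 1.35. In spermatogonia it was lower, with 93 counts or 28.3 CPM against 163 counts or 60.9 CPM, a ratio of 0.465 (0.356 to 0.603). The 163 counts came from 54 cells and 1 cell held 14.7% of them. Its levels there were 55.1% and 159% of those over all kept cells, with the 10 germ cell transcripts used below as a measure of free RNA at 41.3% and 36.7%. Shares of spermatogonia with a UMI were 8.03% and 7.65%, and 2.60% and 3.26% after thinning. With each cell classed by its own marker counts the log2 ratio in spermatogonia was 0.36 in place of -1.10. In leptotene and zygotene spermatocytes Calr3 (ratio 1.53, 0.905 to 2.70) and Pdilt (1.52, 0.920 to 2.60) were past the limit on 20 and 22 counts in the no-diet-named library, and both intervals include 1.

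Pdia3 was higher in the high-fat library by a small margin in every round spermatid class, with ratios of 1.26 (1.19 to 1.33) in early, 1.32 (1.25 to 1.40) in middle and 1.29 (1.18 to 1.41) in late ones. Those margins are under the 1.5-fold limit. For Calr3 in middle round spermatids the ratio of 1.07 covers unlike clusters, since clusters 7 and 8 of the no-diet-named library had 11.7 and 64.9 CPM against 40.8 CPM in the high-fat class. Under other processing settings its log2 ratio there (0.10) ran from -1.56 to 1.77.

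**Figure D3:**
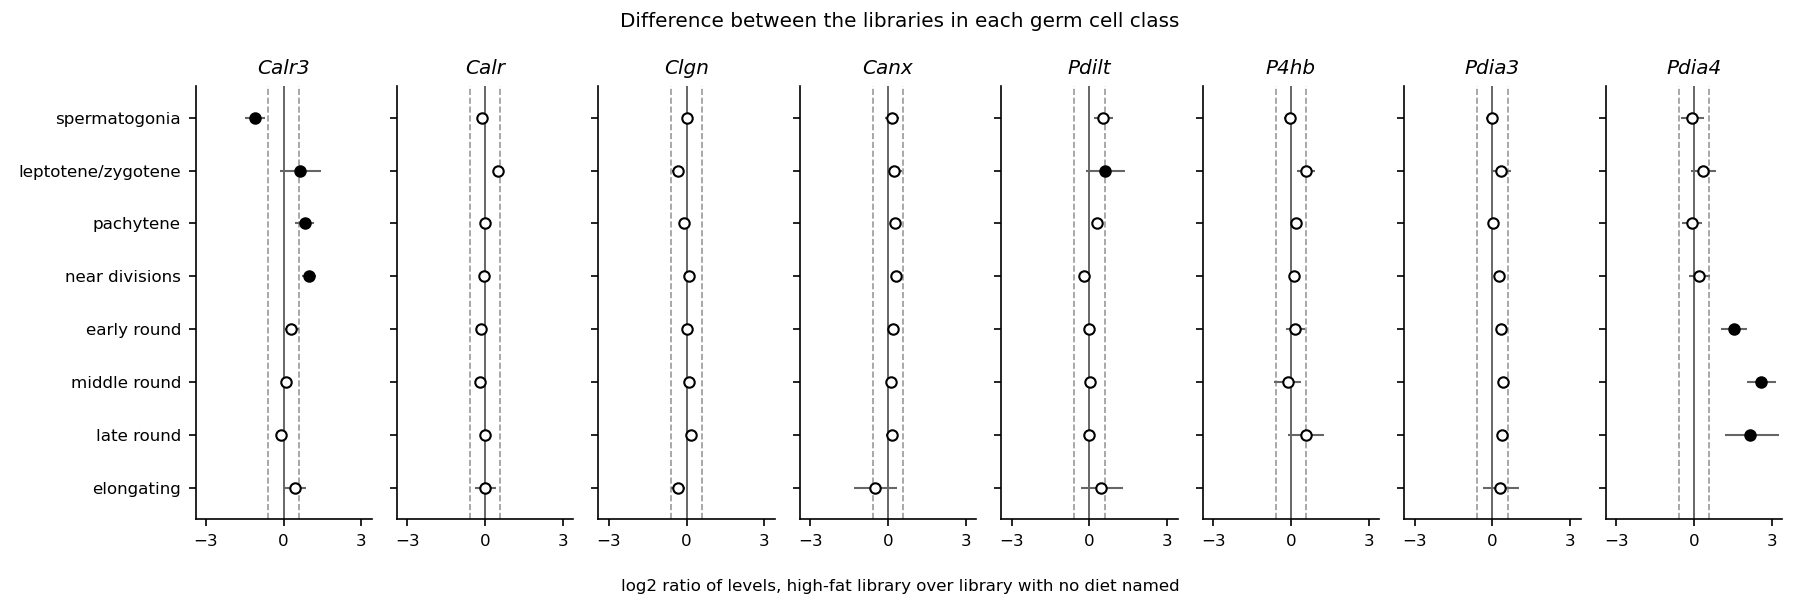
Log2 ratio of levels, high-fat library over library with no diet named (x axis), for each of the 8 genes in 8 germ cell classes (y axis), with 95% counting intervals; filled points are past 1.5-fold, dashed lines mark 1.5-fold either way, and pairs under 20 counts are not drawn. The filled points are 4 of Calr3, 3 of Pdia4 (ratios 2.90, 6.03 and 4.45 in early, middle and late round spermatids) and 1 of Pdilt.

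In spermatogonia, leptotene and zygotene spermatocytes and the somatic classes, free RNA of other cells adds UMIs. The summed level of 10 spermatid and spermatocyte transcripts, none of them at 0 in any class, was 41.3% and 36.7% of its level over all kept cells in spermatogonia and 40.2% and 47.6% in leptotene and zygotene spermatocytes. In these classes Pdilt stood at 42.6% and 29.4%, and 33.7% and 22.0%, of its own level over all kept cells, and Clgn at 49.998% and 49.7%, and 48.0% and 60.5%. Calr3 stood at 55.1% and 159%, and 74.3% and 65.3%, the last 2 on 55 and 20 counts. Pdilt thus lay near or below the free RNA, and Clgn and Calr3 above it. With that share subtracted, Pdilt was at 2.65 CPM and at 0 in spermatogonia and at 0 in both libraries in leptotene and zygotene spermatocytes. A 0 here means that the subtracted amount exceeded the measured level. Clgn came to 88.4 and 123 CPM in spermatogonia and 78.3 and 147 CPM in leptotene and zygotene spermatocytes. Calr3 came to 12.0 and 74.1 CPM, and to 29.4 and 12.9 CPM. The general forms stood well above the free RNA level, and the subtraction raised them: Calr in leptotene and zygotene spermatocytes came to 1778 and 1369 CPM, Canx to 344 and 328, P4hb to 314 and 239 and Pdia4 to 135 and 122.

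In Sertoli cells the germ cell forms lay near or under the free RNA level, save Clgn in the no-diet-named library, and the general forms above it. In Sertoli cells, where the 10 germ cell transcripts were at 72.8% and 74.8% of their library level, Pdilt was at 72.3% and 35.8% (89.5 and 44.7 CPM) and Calr3 at 77.9% and 43.7% (40.1 and 16.7 CPM). Clgn was at 75.1% and 104% there (450 and 620 CPM). Calr stood at 139% and 129% (283 and 275 CPM) and Canx at 131% and 158% (63.2 and 64.0 CPM). Pdia3 stood at 133% and 125%, and Pdia4 at 367% and 244% on 42 and 11 counts. P4hb stood far above its level over all kept cells in interstitial stroma and in myoid and endothelial cells. It stood further above that level in spermatogonia (960% and 1224%) and in leptotene and zygotene spermatocytes (1633% and 1349%). It had 90.5 (68.5 to 117) and 69.5 (49.9 to 94.3) CPM in interstitial stroma and 90.2 (60.4 to 129) and 75.0 (56.6 to 97.4) CPM in myoid and endothelial cells, 722% to 779.5% of its level over all kept cells. P4hb is also known as a subunit of the enzyme that hydroxylates collagen. Canx was at 264% and 219% in myoid and endothelial cells, whereas Calr3 was at 18.1% and 10.5% on 3 and 3 counts, with the germ cell transcripts at 28.8% and 45.1%.

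Between libraries, 11 gene and class pairs were past 1.5-fold in the somatic classes, against 42.2% of all gene and class pairs. By class these were 3 of 8 in Sertoli cells (43.1% of all genes), 3 of 5 in Leydig cells (54.6%), 2 of 7 in stroma (30.5%), 1 of 6 in myoid and endothelial cells (39.1%) and 2 of 6 in lymphocytes (55.7%). In Sertoli cells the 3 were Calr3 (ratio 2.40), Pdilt (2.00) and Pdia4 (2.74), all higher in the high-fat library. Calr3 and Pdilt lay near or under the free RNA there, and its part in these ratios was not tested. In Leydig cells, 75 and 27 in number, Pdilt was at 148% of its level over all kept cells in the high-fat library on 32 counts and at 11.4% in the no-diet-named library on 1 count, with the germ cell transcripts at 82.6% and 58.0%. Canx (ratio 0.217) and Pdia3 (0.346) were lower there. In stroma the pairs past the limit were Calr3 (1.66) and Canx (2.03), in lymphocytes P4hb (2.82) and Clgn (0.618), and in myoid and endothelial cells Pdilt (0.435).

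**Figure D4:**
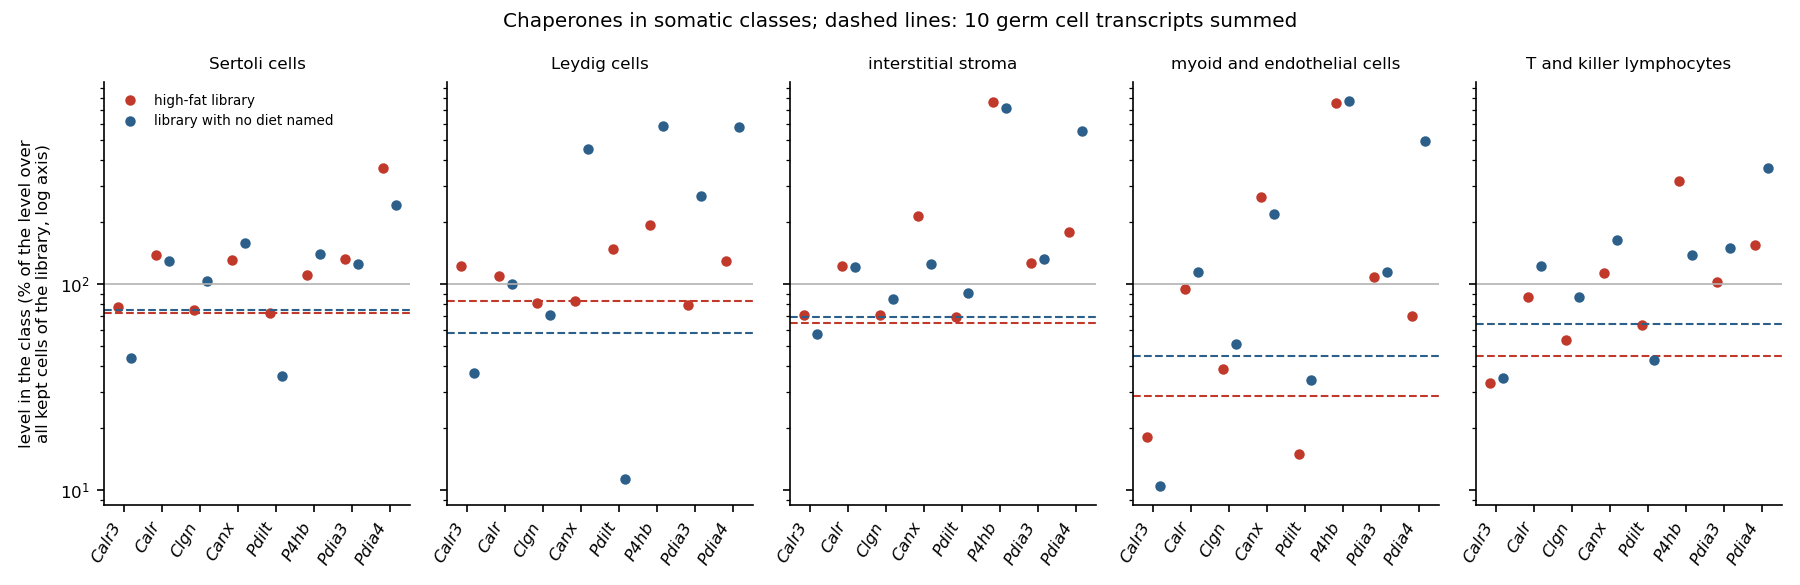
Level of each of the 8 genes in 5 somatic classes as a percentage of its level over all kept cells of the library (y axis, log scale), with the high-fat library and the library with no diet named as separate points; dashed lines give the same value for 10 germ cell transcripts summed. P4hb reaches 766% and 722% in interstitial stroma, while Calr3 is at 18.1% and 10.5% in myoid and endothelial cells.

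Of 30 further folding and stress response genes, 12 had their highest germ cell level in leptotene and zygotene spermatocytes in both libraries, against 14.9% of all genes. At that step 12 of 29 and 10 of 29 measured genes were past 2-fold higher, against 14.2% and 12.0% of all genes, and 2 and 3 lower, against 19.3% and 21.4%, with a median log2 ratio of 0.81 and 0.44, against -0.02 and 0.05 over all genes. The largest ratios were those of Hspa5 (7.45 and 5.11), Dnajc3, a co-chaperone of BiP (5.97 and 5.70), Ern1, the stress sensor IRE1 (2.79 and 6.22), and Dnajb11, another co-chaperone (4.32 and 3.70). The smallest were those of Txndc5 (0.269 and 0.145), the stress transcription factor Xbp1 (0.470 and 0.345), the sensor kinase Eif2ak3 (1.11 and 0.261) and Pdia5 (0.581 and 0.509), each on at most 64 counts in either class. Hspa5 was at 1527 and 1130 CPM in leptotene and zygotene spermatocytes, against 205 and 221 CPM in spermatogonia, and Hsp90b1 at 829 and 905 CPM, against 269 and 339 CPM. All these values are from the main classing. With cells classed by their own marker counts, the levels of Calr, Canx, P4hb and Pdia4 in this class were lower, and those of the list are not given here. In late round spermatids Hspa5 had 33.4 and 52.9 CPM and Hsp90b1 46.1 and 59.4 CPM. At entry into pachytene, 16 of 28 and 12 of 26 measured genes of the list were past 2-fold lower, against 43.5% and 38.1% of all genes. Creld2, a secreted folding factor, was highest in middle round spermatids, with 616 and 631 CPM.

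**Figure D5:**
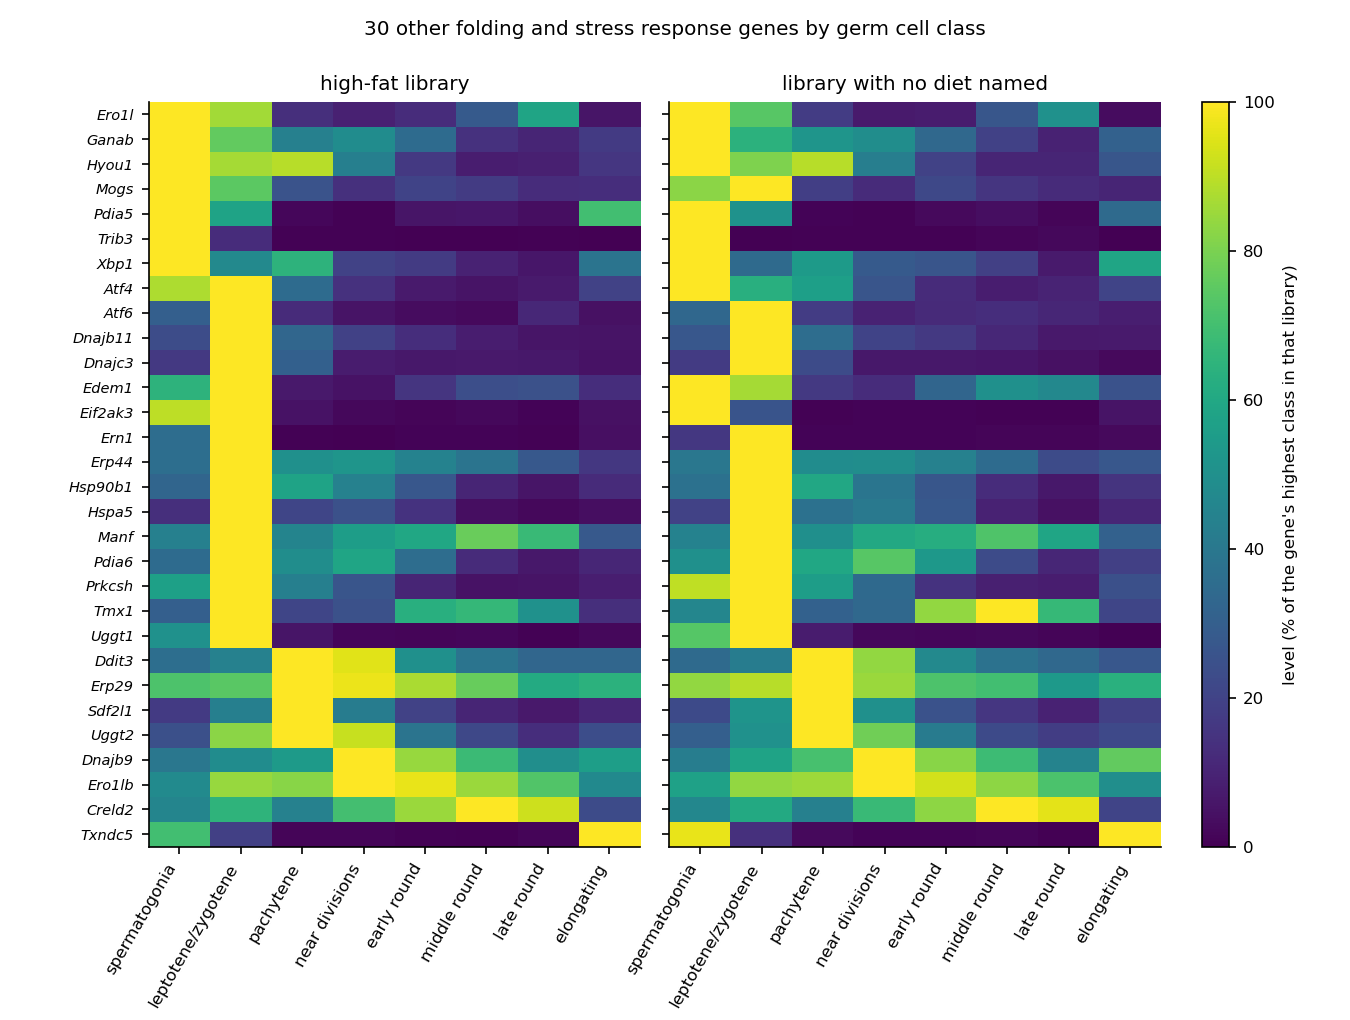
Level of 30 other folding and stress response genes (rows) in 8 germ cell classes (columns, in order of maturation), shaded as a percentage of the gene's highest class, in the high-fat library (left) and the library with no diet named (right). In the main classing, the highest class is leptotene and zygotene for 12 of them in both libraries, among them Hspa5 and Hsp90b1.

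Between libraries over all kept cells, 2 of the 30 folding genes were past 1.5-fold, against 35.6% of all genes, Txndc5 higher (1.46 against 0.690 CPM, ratio 2.12) and Uggt2, a folding sensor, lower (18.1 against 28.7 CPM, ratio 0.630). Next came Pdia5 (1.41), Erp29 (1.40) and Ern1 (1.31) at the high end, and Atf6 (0.774), Trib3 (0.790) and Hspa5 (0.791) at the low end. In middle round spermatids, where Pdia4 was higher in the high-fat library, 6 of 27 measured folding genes were past 1.5-fold lower and none higher. Of all genes 35.6% were past 1.5-fold either way, and the share past it in the lower direction alone is not given here. The median log2 ratio of the folding genes there was -0.25, against 0.04 over all genes. Hspa5 had 58.1 against 108 CPM there, a ratio of 0.539.

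The 12 genes of the sperm protein list did not share 1 stage. Whether each of the 12 depends on these chaperones was not tested here. Tex101 and Ly6k, surface proteins held by a lipid anchor, were highest in leptotene and zygotene spermatocytes, with 1263 and 910 CPM and with 1034 and 963 CPM, and had the largest ratios over spermatogonia (13.6 and 8.49, 10.7 and 10.7). Ly6k was also a marker used to name pachytene cells. Adam1a (1.25 and 1.36) and Cmtm2b (0.993 and 1.46) came next, while Adam2 (0.8897 and 1.06), Pmis2 (0.870 and 1.04), Prss37 (1.07 and 0.521) and Tpst2 (0.930 and 0.323) had the smallest ratios. Adam2, a partner in the fertilin complex that needs Clgn, was highest in pachytene, as was Clgn, with 404 and 377 CPM. Adam3, which needs Calr3 and Pdilt to reach the sperm surface, was highest in early round spermatids, with 750 and 976 CPM. That was within counting error of its level near the divisions, with ratios of 1.004 (0.988 to 1.021) and 1.007 (0.993 to 1.021). Calr3 was still at 5.95 and 4.89 CPM in early round spermatids. The Adam3 level in late round spermatids, the class with most Calr3, was 516 and 680 CPM. Ace, Pmis2 and Prss37 were highest in late round spermatids, with 313 and 320, 521 and 538, and 191 and 221 CPM. Over all kept cells none of the 12 was past 1.5-fold between libraries, against 35.6% of all genes. The largest ratios were those of Prss37 (1.41), Tpst2 (1.38), Cmtm2a (1.21) and Adam1a (1.20), and the smallest those of Adam3 (0.742), Cmtm2b (0.937), Adam1b (1.01) and Adam2 (1.08).

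Among 16986 genes with at least 10 CPM in at least 1 profile, those whose profiles were most like that of Calr3 were Rnf41 (r = 0.94), Gm50092 (0.94), Nyx (0.93), Cct8l1 (0.93) and Bcl2l11 (0.92), each highest in late round spermatids. For Pdilt they were Acrv1, Spaca4, Nipsnap3a, Ccer1 and Spata9 (0.98 each), all highest in late round spermatids, and Acrv1 was itself among the marker and free RNA genes. For Clgn they were Pabpc2 (0.98), Hspa2, Nkapl, Ldhal6b and Nlrp14 (0.97 each), highest in pachytene spermatocytes or near the divisions, and Hspa2 was itself a pachytene marker.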

How the data were processed

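As deposited, the values are raw counts: whole numbers of UMIs for each gene and barcode; per the file headers the matrices were written by PISA 1.0, and the submitters' processing notes name Cell Ranger 2.1.1. No aligner, genome build or gene annotation for the counting is given in the sources used here. Coordinates are therefore those of the named annotations. Per the labels' protocols, tissue was digested with collagenase IV and DNase and loaded on a DNBelab C series droplet kit.

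Barcodes under 500 UMIs or 250 genes, or over 20% mitochondrial UMIs, were dropped, which removed 3 (high-fat) and 2 barcodes. Doublets (462 and 517) were called with Scrublet in scanpy 1.11.5 at an expected rate of 6%. Both libraries were clustered together (2000 variable genes without the 8 genes and the folding and sperm protein lists, 50 principal components, 20 neighbours, leidenalg 0.10.2 at resolution 1). Clusters were named from fixed marker lists; naming thresholds were set after the clusters were seen. Names went by the number of a class's markers among a cluster's leading genes, or failing that by their mean log2 fold.

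Counts were summed per class and library and given as CPM; ratios have 95% exact conditional binomial intervals and shares exact Clopper-Pearson intervals. A gene counted as measured with at least 20 counts, and as past the limit beyond 1.5-fold (libraries) or 2-fold (stages). The ratio steps were tested on simulated data with known folds. Named genes were the 8 genes, of each list the 4 largest and 4 smallest ratios, and the 5 profiles most like each germ cell form; genes named for their highest class, and the steps chosen to name from, were picked after the values had been seen. The 8 genes, the lists and the markers were chosen with earlier results of these data known. Of 32 listed folding genes, 30 were in the files. Calculations used Python 3.11.15, numpy 2.4.6, pandas 2.3.3, scipy 1.17.1, scikit-learn 1.9.0 and matplotlib 3.10.9. Alternatives changed the scaling, the clustering, the cell filters, the weighting, the depth and the free RNA.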

Additional observations from a re-analysis of the deposited data

How the results depend on the processing

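With 1 library per group no alternative carries a test, and no replicate could be left out. No paired analysis was possible because each group has 1 library, so that the groups cannot share more than 1 replicate number. The Calr3 share of Calr3 and Calr in late round spermatids (72.5% high-fat, 73.7% no-diet-named) was 54.1% and 50.5% with cells classed by their own marker counts, 61.2% and 54.6% at resolution 0.5, 67.7% and 71.0% with doublets kept, 74.0% and 76.6% with at least 2000 UMIs, and 73.4% and 72.1% with each cell weighted equally. It was 65.9% in the high-fat library with the 8 genes kept in the clustering, and 67.8% in the no-diet-named library after thinning to 1000 UMIs. The Clgn share (95.3% and 95.1%) was 95.7% and 95.7% with cells classed by their own marker counts, and in the no-diet-named library 95.8% at resolution 0.5 and 96.2% after thinning. The Pdilt share in the high-fat library (99.3%) was 98.2% after thinning. Stage steps past 2-fold (21 and 23) numbered 12 and 12 with cells classed by their own marker counts. Pairs past 1.5-fold between libraries in germ cells (8) numbered 5 at resolution 0.5 and in somatic classes (11) 7 after thinning and 19 with free RNA subtracted, also with the added subtraction in early germ cells, which was chosen after seeing the data. The causes were not tested.

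With cells classed by their own marker counts, the log2 ratio of Calr3 in spermatogonia (-1.10) was 0.36. That in leptotene and zygotene spermatocytes (0.62) was -0.36 with cells so classed and -0.22 after thinning. Across the alternatives the spermatogonial ratio of Calr3 ran from -2.62 to 0.36. The Pdia4 log2 ratio kept its direction under the alternatives run, from 1.44 to 2.14 in early, 2.25 to 2.99 in middle and 1.97 to 2.59 in late round spermatids. Over all alternatives, 480 log2 ratios of single genes moved by less than their interval, 154 moved further and 3 were counted as reversed. Those 3 are not every change of sign. The log2 ratio of Calr3 ran from -1.56 to 1.77 in middle (main value 0.10) and from -0.57 to 0.28 in early round spermatids (0.28). That of Clgn in pachytene spermatocytes (-0.105) ran from -0.20 to 0.20. Of levels in the highest class, 86 moved by less than their interval and 72 further. Without a count filter, 42.4% of all gene and class pairs in germ cells and 51.1% in somatic classes were past 1.5-fold. Scaling by the median of gene ratios was applied to library ratios only. Late round spermatids of the high-fat library gave no value with each library clustered alone, nor did the division stage with the 8 genes kept in the clustering or with at least 2000 UMIs. Depth limits P4hb and Pdia4 in elongating spermatids (8 and 4, 4 and 3 counts) and all Leydig values.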

Other observations

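Clusters 5 and 11, which stayed without a name and were shallow, held all 3 germ cell forms. Cluster 11 had 163 and 95.7 CPM of Calr3 and 413 and 298 CPM of Pdilt in the high-fat and no-diet-named library, at median depths of 3013 and 1918 UMIs. Cluster 5 had 70.6 and 122 CPM of Calr3 and 166 and 276 CPM of Pdilt, at 1383 and 1590 UMIs. P4hb was at 4.40 and 5.57 CPM in cluster 11 and at 12.3 and 5.56 CPM in cluster 5. In cluster 11, Pdia4 was at 11.004 CPM in the high-fat library and at 0.506 CPM in the no-diet-named library. Clgn was at 669.6 and 598 CPM in cluster 11 and at 705 and 649.98 CPM in cluster 5, each but the 598 CPM above its level in every round spermatid class. These cells enter none of the classes above.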
